A study of Mus musculus with 15 samples.

Results

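Toll-like receptors sense microbial products and molecules released by injured cells, and the genes described here are 7 of these receptors (Tlr1, Tlr2, Tlr3, Tlr4, Tlr7, Tlr9 and Tlr13), the co-receptor genes Cd14 and Ly86, and Myd88, the gene of the adaptor protein through which most of the family signals. They were taken by name, by matching each symbol to its mouse Ensembl identifier; the rule uses no measured value, but the list of names was drawn up with earlier results of these data known. All 10 were found among the 65964 entries of the expression table, and all 10 passed the filter for testing (a level of 1 TPM reached by 3 or more libraries). TPM is a transcript abundance that scales a gene's reads to its length and to the library total, so levels can be set side by side between genes.

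RNA sequencing was done on brain RNA of C57BL/6 mice in a study of lipid-laden astrocytes and seizures. Kainic acid (KA), a drug that excites neurons through kainate-type glutamate receptors, is widely used in rodents to model temporal lobe epilepsy (TLE). There were 5 groups of 3 libraries. The untreated group is CTRL_L, the groups labelled KA are KA_L and KA_H, and those labelled KA with APOE are APOE_L and APOE_H. Every library, the untreated ones included, also carries the label of the KA-induced TLE model. The letters L and H appear in the library names and are not defined, so they are used as names only. No untreated H group is named, so KA_H and CTRL_L differ in letter as well as in treatment. What was done to APOE, and the age, sex and sampling time of the animals, are not given in the sources used here. Whether libraries of the same group are different animals is not stated, and p-values therefore measure the spread between these libraries, which may be technical.

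Toll-like receptors fall into 2 sets by where they act. Tlr1, Tlr2 and Tlr4 sit in the plasma membrane and bind lipid-bearing ligands. Tlr2 pairs with Tlr1 on triacylated lipopeptides, and Tlr4 with its partner MD-2 (Ly96) binds lipopolysaccharide that Lbp and Cd14 hand over. Tlr3, Tlr7, Tlr9 and Tlr13 bind nucleic acids in endosomes, which they reach with the help of Unc93b1. Apart from Tlr3, which signals through the adaptor Ticam1, the receptors recruit Myd88, then Irak kinases and Traf6, and end in the transcription factors NF-kappaB, AP-1 and Irf. In the brain these receptors are best known from microglia, the resident macrophages, and Tlr4 has been studied in seizure models.

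The promoter stretches of Tlr2, Myd88 and Tlr1 are shown because these are the members that passed a test below. Promoter windows came from RefSeq on GRCm38.p6 and run from 250 bases before to 50 bases after the start site. They were matched for 7 of the 10 genes, and Cd14, Tlr4 and Tlr7 were not matched. The windows of a whole chromosome were left out of the matching, so a gene without a match may still have a RefSeq window. The stretches printed run from the 5′ end of the window to the first annotated exon (GENCODE M21), 5′ to 3′ on the gene's strand. All 3 genes lie on the minus strand, Tlr2 at chr3:83841768-83841858, Myd88 at chr9:119340042-119340268 and Tlr1 at chr5:64933564-64933808. Capitals mark matches to NF-kappaB in Tlr2, to the interferon-stimulated response element (ISRE) in Myd88 and to PU.1, a transcription factor of myeloid cells, in Tlr1.
Tlr2: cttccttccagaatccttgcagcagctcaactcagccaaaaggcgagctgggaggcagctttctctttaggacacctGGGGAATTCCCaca
Myd88: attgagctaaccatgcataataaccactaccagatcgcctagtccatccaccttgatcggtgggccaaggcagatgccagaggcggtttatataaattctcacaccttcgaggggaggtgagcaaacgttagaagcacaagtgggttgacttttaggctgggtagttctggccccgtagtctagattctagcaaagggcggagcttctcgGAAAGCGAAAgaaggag
Tlr1: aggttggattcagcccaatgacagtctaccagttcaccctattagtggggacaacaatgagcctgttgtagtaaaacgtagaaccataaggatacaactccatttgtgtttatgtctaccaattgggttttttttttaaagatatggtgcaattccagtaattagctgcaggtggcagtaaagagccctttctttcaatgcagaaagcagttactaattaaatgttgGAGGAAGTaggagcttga

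The capitals in Tlr2 hold overlapping NF-kappaB matches whose first bases lie at -173 and -172 from the RefSeq start site. Another NF-kappaB match of Tlr2 lies at -8, outside the printed stretch. The ISRE, searched as a pair of GAAA runs 2 bases apart, begins at -40 in Myd88 (GAAAGCGAAA), and the PU.1 letters GAGGAAGT at -23 in Tlr1. Both strands were searched. Of all 32851 promoter windows of this length, 8.46% held the NF-kappaB motif, 3.44% the ISRE and 3.20% the PU.1 letters. The other motifs searched were the ETS core GAGGAA (28.3% of windows, and contained in the PU.1 letters), AP-1 as TGANTCA (7.81%), CRE as TGACGTCA (1.79%), SP1 as GGGCGG (35.7%) and TATA as TATAAA (13.6%). Members that passed no test held matches too, NF-kappaB in Tlr3 at -211, and PU.1 at 10 and AP-1 at -58 in Tlr9. Matches to SP1, not capitalised, lay at -69 and -48 in Tlr2, at -55 in Myd88 and at 37 in Tlr3. TATA lay at -164 and -160 in Myd88, and the ETS core at -112 and 12 in Tlr9 and at -83 in Tlr13. The Ly86 window held none of the 8 motifs, nor did another RefSeq window of Tlr1 (chr5:64932650-64932949), of which nothing is printed. A match describes the letters and shows no binding.

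Some facts of the libraries bear on every result. All 14 microglia markers reached 1 TPM in each of the 15 libraries, with sums of 7421 to 30055 TPM. Neuron markers summed to 0.01 to 66.5 TPM and astrocyte markers to 42.7 to 335 TPM, although the labels give the tissue as brain. Of the 10 astrocyte markers, Slc1a3 alone reached 1 TPM in all 15 libraries (33.5 to 157 TPM), and Gfap was listed at 0 in 11. Choroid plexus markers separated the letters, with sums of 33259 to 58940 TPM in the 6 H libraries and 57.6 to 1281 TPM in the 6 KA_L and APOE_L libraries. In CTRL_L they stood at 140 TPM in replicate 1 and at 39121 and 23917 TPM in replicates 2 and 3, so that replicate 1 stands apart in its own group. Apoe was at 161 to 889 TPM in CTRL_L, 1970 to 3262 in KA_L and 8767 to 16636 in KA_H, against 0 to 0.71 in APOE_L and 6.49 to 144 in APOE_H. The libraries labelled APOE thus held less Apoe transcript than those labelled KA, and the label is used as a name only. Bulk RNA cannot tell fewer cells of a type from less RNA per cell. TPM keeps no sequencing depth, so the reads behind each value are unknown. The number of entries at 1 TPM or more separated the letters, at 12801 to 15452 in the 6 H libraries. It was 9931 to 12085 in the libraries of CTRL_L, KA_L and APOE_L. The part of this difference in the H against L results was not tested.

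Tlr2 was the member that separated the H from the L libraries. It stood at 24.0, 0.13 and 0.78 TPM in the CTRL_L libraries (replicates 1, 2 and 3), 1.26, 8.92 and 1.22 in KA_L, 74.3, 38.4 and 33.7 in KA_H, 0.72, 31.2 and 25.7 in APOE_L and 108, 88.4 and 127 in APOE_H. All 6 H libraries after KA (33.7 to 127 TPM) lay above all 6 L libraries (0.72 to 31.2 TPM). The order of the group means was KA_L, CTRL_L, APOE_L, KA_H, APOE_H. KA_H and APOE_H did not overlap the group before them, whereas KA_L, CTRL_L and APOE_L overlapped each other. Averaged over KA and APOE, Tlr2 was 3.45 higher in H than in L on the log2(TPM + 1) scale (SE 0.93, Benjamini-Hochberg adjusted p = 0.0259 by limma; 6 of 6 H libraries above the highest L library).

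The H against L difference of Tlr2 had the same sign in KA and in APOE. It was 3.67 for KA_H against KA_L (SE 1.32, adjusted p = 0.201, limma) and 3.24 for APOE_H against APOE_L (SE 1.32, adjusted p = 0.160, limma), and neither passed. The averaged call was lost with a pseudocount of 0.1 (adjusted p = 0.0537), without the filter (0.0721) and when any of 7 libraries was left out. These were KA_L replicates 1 and 3, KA_H replicates 1 and 3, APOE_L replicate 1 and APOE_H replicates 1 and 3, with log2 differences of 2.77 to 3.56 and adjusted p of 0.0503 to 0.0649 by limma.

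Tlr1, the partner of Tlr2, was low in APOE_L and varied widely in CTRL_L and KA_L. Its values were 51.8, 0.80 and 10.8 TPM in CTRL_L, 5.83, 31.8 and 2.19 in KA_L, 21.7, 19.2 and 17.0 in KA_H, 0 (listed at 0), 0.51 and 1.64 in APOE_L, and 31.3, 17.9 and 53.1 in APOE_H. All 3 APOE_H libraries lay above all 3 of APOE_L, and KA_H lay within the range of KA_L. APOE_H was 4.34 higher than APOE_L on the log2(TPM + 1) scale (SE 1.25, adjusted p = 0.0496, limma), a call that was lost whichever of the 6 libraries was left out (adjusted p from 0.0738 to 0.175). It was lost without the filter (adjusted p = 0.0999) and with the replicate number as a block (0.0691) too. For KA_H against KA_L the difference was 1.18 (SE 1.25, adjusted p = 0.71, limma). The 2 differences were not shown to differ from each other (interaction 3.16, SE 1.77, adjusted p = 0.673, limma). The average over both conditions, 2.76 (SE 0.88), had an adjusted p of 0.0576 by limma. It passed without KA_L replicate 2, which held the highest KA_L value (3.23, adjusted p = 0.0318).

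Within a library, Tlr2 exceeded Tlr1 in all 6 H libraries, with ratios of 1.98 to 3.43 in KA_H and 2.38 to 4.95 in APOE_H. In the 6 libraries of CTRL_L and KA_L, Tlr1 exceeded Tlr2, with Tlr2 to Tlr1 ratios of 0.0724 to 0.557. The APOE_L libraries had the largest ratios, 61.3 and 15.6, beside the library in which Tlr1 was listed at 0. These ratios are of levels per transcript length and carry no test.

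Tlr4, the lipopolysaccharide receptor gene, had no clear order. Its values were 9.55, 3.30 and 0.06 TPM in CTRL_L, 7.68, 39.4 and 9.39 in KA_L, 4.65, 32.0 and 38.5 in KA_H, 33.3, 65.5 and 23.4 in APOE_L, and 22.2, 57.9 and 6.44 in APOE_H. CTRL_L had the lowest mean (4.30 ± 4.82 TPM, mean ± SD, n = 3) and APOE_L the highest (40.7 ± 22.0 TPM), and each group overlapped the next in the order. KA_L was 2.08 above CTRL_L on the log2(TPM + 1) scale (SE 1.19, adjusted p = 0.563, limma).

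Cd14, which passes lipopolysaccharide to Tlr4 and serves Tlr2 as well, was among the more abundant members. It ran at 291, 46.0 and 68.3 TPM in CTRL_L, 87.1, 367 and 81.3 in KA_L, 198, 142 and 144 in KA_H, 203, 412.5 and 112 in APOE_L, and 385, 258 and 215 in APOE_H. Each library of APOE_H lay above each library of KA_H, and each group overlapped the next in the order of means. On average over both letters, APOE exceeded KA by 0.70 on the log2(TPM + 1) scale (SE 0.53, adjusted p = 0.779, limma). H exceeded L by 0.30 (SE 0.53, adjusted p = 0.766, limma). Cd14 was above Tlr4 in every library, from 3.73 times in KA_H replicate 3 to 1138 times in CTRL_L replicate 3, where Tlr4 was at 0.06 TPM.

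Ly86 encodes MD-1, the partner of the Toll-like receptor relative Cd180, and was the most abundant member in every group. Its values were 1961, 566 and 1183 TPM in CTRL_L, 911, 1645 and 1109 in KA_L, 2699, 3425 and 3877 in KA_H, 2287, 2725 and 2677 in APOE_L, and 2316, 1641 and 1757 in APOE_H. KA_H lay above both CTRL_L and KA_L with no overlap. It was 1.48 above KA_L on the log2(TPM + 1) scale (SE 0.36, adjusted p = 0.0508, limma) and 1.59 above CTRL_L (SE 0.36, adjusted p = 0.0737, limma), and neither passed. With upper-quartile scaling both did (1.82 and 2.19, adjusted p = 0.0148 and 0.00872, limma). The first also passed without KA_L replicate 2 (1.71, adjusted p = 0.0398) and with a pseudocount of 0.1 (1.48, adjusted p = 0.0404). The second passed without CTRL_L replicate 1 (2.01, adjusted p = 0.0135), the library with few choroid plexus transcripts.

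The direction of APOE against KA for Ly86 was opposite in the 2 letters. APOE_L lay above KA_L in every library (1.11, SE 0.36, adjusted p = 0.418, limma). APOE_H lay below KA_H in every library (-0.81, SE 0.36, adjusted p = 0.546, limma), and neither difference passed. The interaction was -1.92 on the log2 scale (SE 0.51, unadjusted p = 0.00162, adjusted p = 0.268, limma) and did not pass. Cd180 itself was at 109 to 152 TPM in CTRL_L, 82.7 to 178 in KA_L, 61.8 to 111 in KA_H, 46.9 to 132 in APOE_L and 61.9 to 115 in APOE_H, overlapping throughout. The ratio of Ly86 to Cd180 accordingly ran from 5.12 to 19.9 in the libraries of CTRL_L and KA_L, from 26.8 to 62.7 in KA_H, from 17.4 to 57.1 in APOE_L and from 20.1 to 28.4 in APOE_H.

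**Figure D1:**
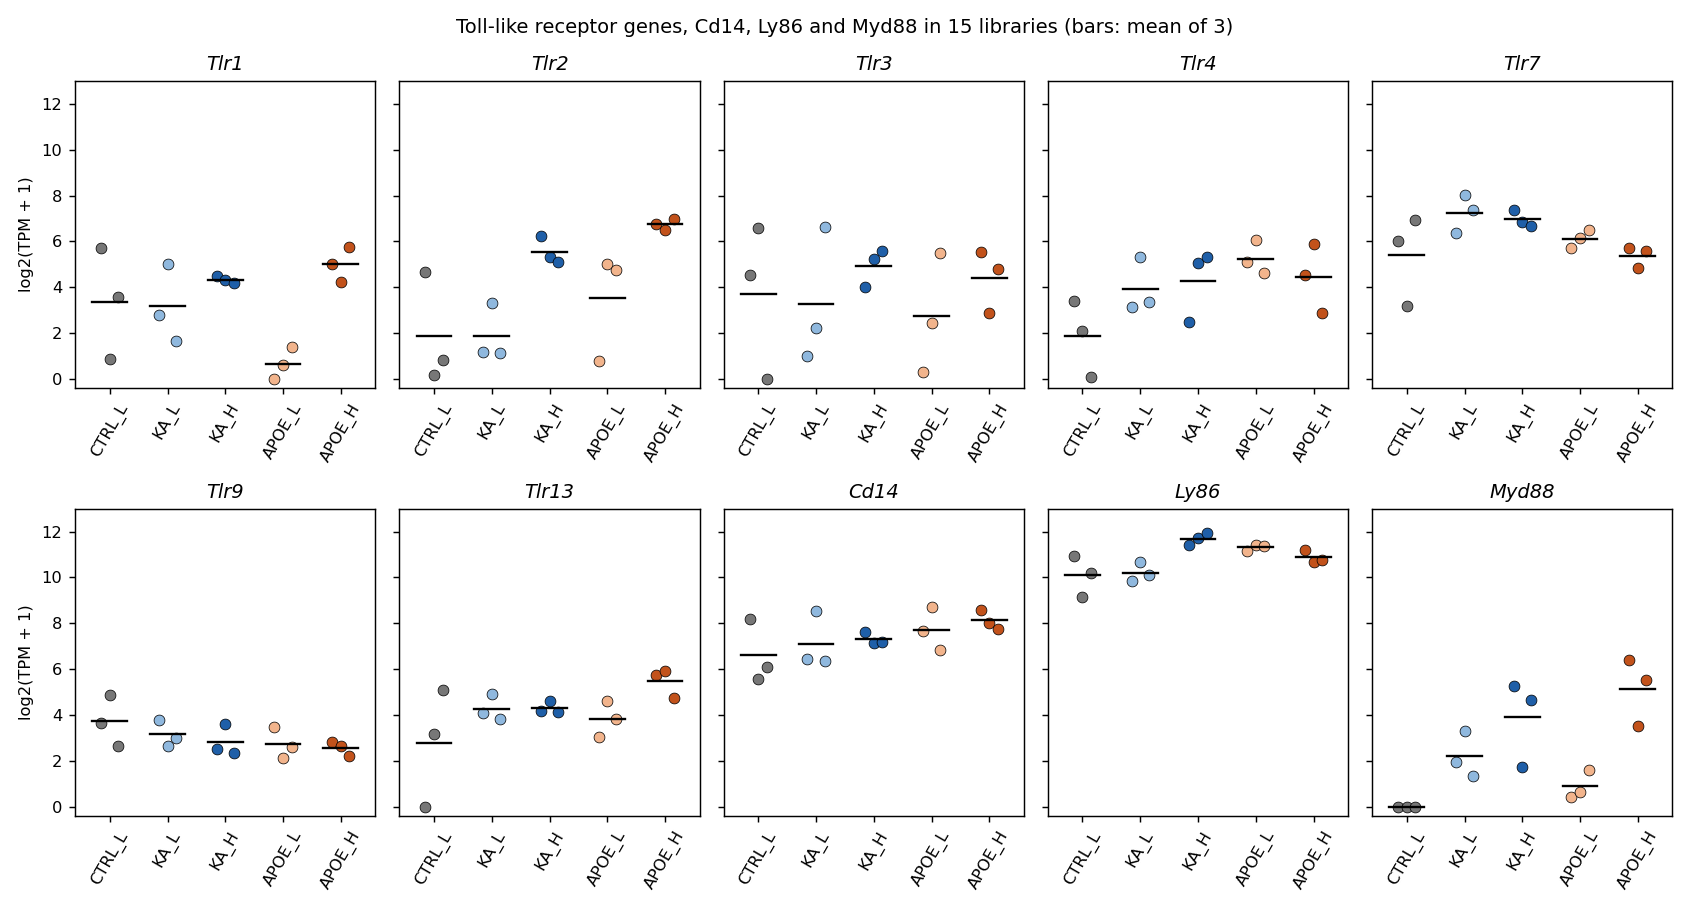
Levels of the 10 genes as log2(TPM + 1) on the vertical axis, by group on the horizontal axis; each point is 1 library and each bar the mean of 3. Tlr2 sits higher in KA_H and APOE_H than in KA_L and APOE_L in each library, Ly86 is the highest gene in all groups, and Myd88 is listed at 0 in the 3 CTRL_L libraries.

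Among the endosomal receptors Tlr7, a sensor of single-stranded RNA, was the most abundant. It stood at 64.0, 8.15 and 123 TPM in CTRL_L, 81.7, 260.2 and 166 in KA_L, 163, 115 and 102 in KA_H, 51.0, 69.6 and 89.3 in APOE_L, and 51.6, 27.4 and 46.9 in APOE_H. All 3 APOE_H libraries lay below all 3 of KA_H. KA_L and APOE_L overlapped, since KA_L replicate 1 (81.7 TPM) was below APOE_L replicate 3 (89.3 TPM). Tlr7 was 1.37 lower with APOE than with KA over both letters (log2 difference -1.37, SE 0.60, unadjusted p = 0.0366, adjusted p = 0.558, limma). For APOE_H against KA_H the difference was -1.59 (SE 0.85, adjusted p = 0.654, limma), and for KA_L against CTRL_L it was 1.87 (SE 0.85, adjusted p = 0.426, limma). None of these passed.

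Tlr13, a mouse sensor of bacterial ribosomal RNA, was listed at 0 in CTRL_L replicate 1 and stood at 8.07 and 33.4 TPM in the other two. It was at 15.9, 29.2 and 13.2 TPM in KA_L, 17.2, 23.5 and 16.5 in KA_H, 7.29, 23.4 and 13.3 in APOE_L, and 53.4, 58.9 and 25.4 in APOE_H. The APOE_H libraries lay above those of KA_H and of APOE_L. The difference from KA_H was 1.15 on the log2(TPM + 1) scale and did not pass (SE 1.13, adjusted p = 0.855, limma).

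Tlr3, the receptor for double-stranded RNA, spanned the widest range, as a ratio, of the members that were above 0 in every library, from 0.01 TPM (CTRL_L replicate 3) to 97.6 TPM (KA_L replicate 3). Within CTRL_L alone it was at 22.3, 94.1 and 0.01 TPM, and within KA_L at 1.00, 3.72 and 97.6 TPM. The values were 14.99, 36.1 and 47.4 TPM in KA_H, 0.24, 4.48 and 43.4 in APOE_L, and 45.8, 6.33 and 26.6 in APOE_H. Each group overlapped the next in the order of means, and H against L gave 1.65 (SE 1.23, adjusted p = 0.422, limma).

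Tlr9, which binds unmethylated CpG DNA, was the least abundant receptor of the set by its mean over the 15 libraries (8.21 TPM), yet was present at 3.40 TPM or more in each. Group means fell in the order CTRL_L (14.9 ± 11.7 TPM, n = 3), KA_L (8.37 ± 3.93), KA_H (6.66 ± 3.98), APOE_L (6.19 ± 3.48) and APOE_H (4.96 ± 1.28), but each overlapped the next. The H against L difference was -0.26 (SE 0.71, adjusted p = 0.858, limma).

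Tlr7 had the highest level of any Toll-like receptor gene in 11 of the 15 libraries. Tlr3 led in CTRL_L replicate 2 (94.1 TPM), and Tlr2 led in 3 libraries, those of APOE_H. The summed level of the 12 receptor genes in the table was 171 ± 13.8 TPM in CTRL_L, 270 ± 131 in KA_L, 286 ± 24.9 in KA_H, 173 ± 60.7 in APOE_L and 295 ± 34.1 in APOE_H (mean ± SD, n = 3). Where Tlr7 led, it held from 34.4% (APOE_L replicate 2) to 70.8% (CTRL_L replicate 3) of this sum. In APOE_H the leading receptor, Tlr2, held 32.7%, 33.7% and 43.1%. The 5 receptor genes outside the set were low. Tlr6 ran from 0 to 13.5 TPM and reached 1 TPM in 6 libraries, Tlr5 and Tlr12 reached 1 TPM in 1 library each (6.38 and 5.10 TPM), and Tlr8 and Tlr11 did not exceed 0.03 TPM.

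Myd88, the shared adaptor, was the member most often close to 0. It was listed at 0 in the 3 CTRL_L libraries and stood at 2.80, 8.94 and 1.55 TPM in KA_L, 37.9, 2.32 and 24.5 in KA_H, 0.33, 0.57 and 2.01 in APOE_L, and 82.8, 10.4 and 44.6 in APOE_H. Of the 6 H libraries 5 lay above all 6 L libraries after KA, and the exception was KA_H replicate 2 at 2.32 TPM. Each APOE_H library lay above each APOE_L library, and KA_H overlapped KA_L. An exact 0 in a TPM table may be a failed estimate, so no fold is given against CTRL_L.

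Averaged over KA and APOE, Myd88 was 2.97 higher in H than in L on the log2(TPM + 1) scale (SE 0.84, adjusted p = 0.0331, limma; above the highest L library in 5 of 6). APOE_H exceeded APOE_L by 4.25 (SE 1.19, adjusted p = 0.0436, limma). KA_H exceeded KA_L by 1.70 (SE 1.19, adjusted p = 0.552, limma), and the interaction, 2.55, did not pass (SE 1.68, adjusted p = 0.736, limma). The averaged call was lost without the filter (adjusted p = 0.05) and without any of KA_L replicates 1 and 3, KA_H replicates 1 and 3, APOE_L replicates 1 and 2 or APOE_H replicates 1 and 3 (log2 differences of 2.63 to 2.92, adjusted p of 0.062 to 0.0864). The APOE_H against APOE_L call held with upper-quartile scaling and without APOE_H replicate 2, and was lost in the other 9 alternatives. Those were a pseudocount of 0.1 (0.0523), no filter (0.0678), the replicate number as a block (0.0565), only the groups compared (0.0556) and leaving out APOE_L replicates 1, 2 or 3 or APOE_H replicates 1 or 3 (0.0687 to 0.167).

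**Figure D2:**
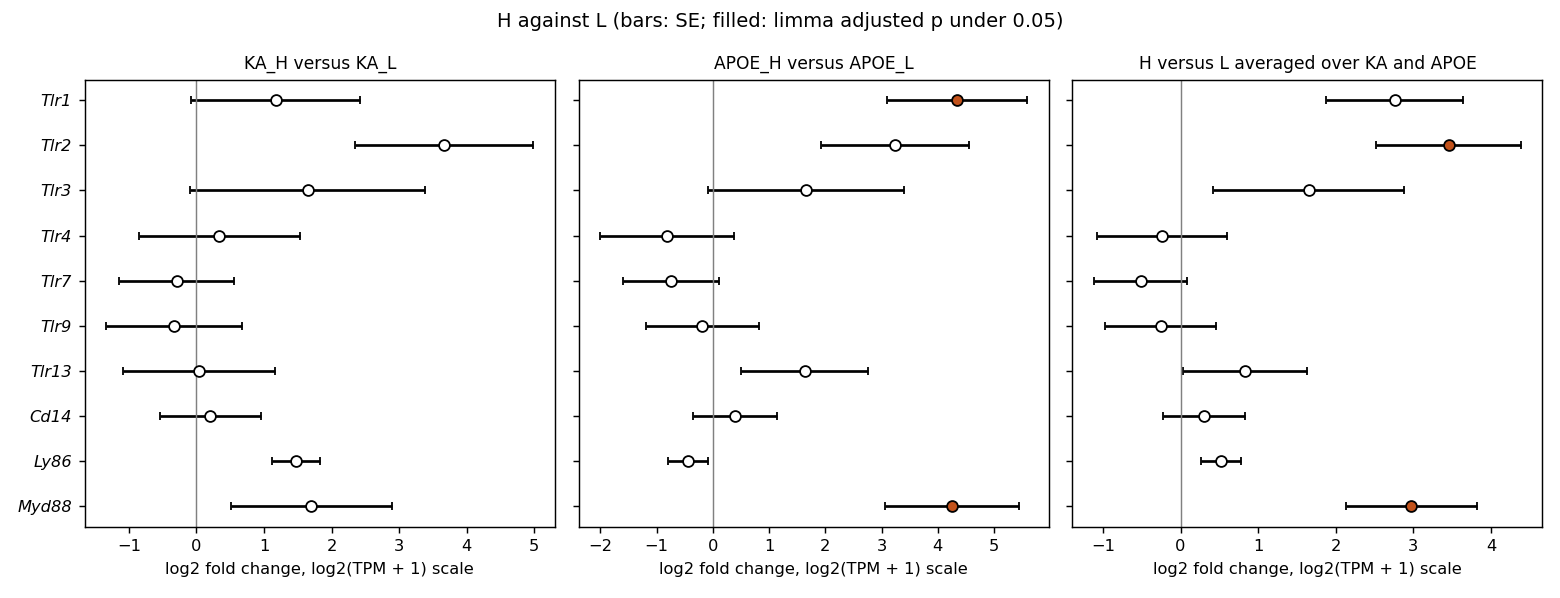
Log2 fold change (horizontal axis, log2(TPM + 1) scale) of H against L for each gene (vertical axis) in KA, in APOE and averaged over both; bars are 1 SE and filled points passed limma. Tlr2 and Myd88 are filled in the average (3.45 and 2.97), and Tlr1 and Myd88 in APOE (4.34 and 4.25).

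Read against all tested entries, H against L averaged over KA and APOE called 2 of the 10 members, where 10.2% of all 17505 entries tested were called (3 of the 10 at an unadjusted p under 0.05). The median difference of the members was 0.68 against 0.32 for all entries. APOE_H against APOE_L called 2 members, against 6.15% of all entries, with a median of 1.01 against 0.54. In that comparison 4 members did not overlap between the groups (Tlr1, Tlr2, Tlr13 and Myd88, all higher in APOE_H), where 29.8% of all entries did not.

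KA_H against KA_L called 0 members by limma (2 at an unadjusted p under 0.05), where 1.49% of all entries were called. Tlr2 and Ly86 did not overlap, 2 of 10 members, where 19.6% of all entries did not. The median of the members was 0.76 and that of all entries 0.11, which upper-quartile scaling moved to 0.32. KA_H against CTRL_L called 0 members by limma (3 at an unadjusted p under 0.05, 0.377% of all entries called). Tlr2, Ly86 and Myd88 were higher without overlap in KA_H, 3 of 10 members against 14.4% of all entries. The CTRL_L libraries of Myd88 were all listed at 0, so any level above 0 in KA_H leaves no overlap. Myd88 is also among the 3 at an unadjusted p under 0.05 and enters the members' median. The median of the members was 1.56 against 0.10 for all entries, and 0.47 for all entries with upper-quartile scaling.

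KA_L against CTRL_L, the comparison of KA within the L libraries, called 0 members by limma (1 at an unadjusted p under 0.05, Tlr7; 0.571% of all entries called). Myd88 alone did not overlap, where 10.8% of all entries did not, and its CTRL_L libraries were all listed at 0. The members' median was 0.31 and that of all entries 0.00.

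APOE_L against KA_L called 0 members by limma (1 at an unadjusted p under 0.05, Ly86; 0.0457% of all entries called). Ly86 was higher and Tlr1 lower without overlap, 2 of 10 members against 9.09% of all entries. APOE_H against KA_H called 0 members by limma (1 at an unadjusted p under 0.05; 0.531% of all entries called). In this comparison 5 of 10 members did not overlap, Tlr2, Tlr13 and Cd14 being higher and Tlr7 and Ly86 lower in APOE_H, where 21.1% of all entries did not overlap. The members' median was 0.41 and that of all entries 0.25, which upper-quartile scaling moved to 0.01.

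APOE against KA over both letters called 0 members by limma (1 at an unadjusted p under 0.05, Tlr7; 0.0171% of all entries called), and the interaction called 0 (1 at an unadjusted p under 0.05, Ly86; 0.0457% of all entries called). Every group enters more than 1 of the comparisons, so their values are not independent of each other. APOE_H against APOE_L and the averaged H against L, which hold all member calls, share both APOE_H and APOE_L.

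The rest of the pathway was described from 7 lists of 77 genes, of which 68 were tested. H against L averaged over KA and APOE called 5 of the 68 higher and 3 lower, 11.8% of them against 10.2% of all entries. APOE_H against APOE_L called 2 higher and 1 lower, 4.41% against 6.15% of all entries. The share called was thus near or below that of all entries in these comparisons. KA_H against KA_L called 1 higher and 1 lower, 2.94% against 1.49% of all entries. KA_L and KA_H against CTRL_L called 2 higher each, 2.94% against 0.571% and 0.377%. APOE_H against KA_H called 1 higher, 1.47% against 0.531%. APOE_L against KA_L, APOE against KA over both letters and the interaction called 0 each.

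The accessory and trafficking genes held 4 of these 8 calls in H against L, 3 higher and 1 lower of 9 (median 1.61 against 0.32 for all entries). Lbp, the lipopolysaccharide-binding protein gene, was at 0.13 and 0.07 TPM and listed at 0 in KA_L, at 40.2, 159 and 88.7 TPM in KA_H, listed at 0 in 2 APOE_L libraries and at 0.03 TPM in the third, and at 159, 138 and 169 TPM in APOE_H. All 6 H libraries lay above all 6 L libraries (6.79, SE 1.03, adjusted p = 0.0008, limma), and the call held in all 17 alternatives run. In CTRL_L, Lbp was at 0.04 TPM in replicate 1 and at 239.8 and 61.0 TPM in replicates 2 and 3, the 2 libraries with high choroid plexus sums. No other library outside H reached 1 TPM, so Lbp needed the H libraries to pass the filter for testing. The part of choroid plexus RNA in the Lbp difference was not tested.

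Ly96, the MD-2 partner of Tlr4, moved the other way. Its values were 371, 217 and 508 TPM in CTRL_L, 588, 489 and 549 in KA_L, 142, 442 and 309.8 in KA_H, 392, 1155 and 665 in APOE_L, and 124, 133 and 93.4 in APOE_H. APOE_H lay below every other library of the study. Ly96 was lower in H than in L (-1.76, SE 0.37, adjusted p = 0.00681, limma), a call kept in all 17 alternatives. It was also lower in APOE_H than in APOE_L (-2.53, SE 0.52, adjusted p = 0.0103, limma), which was lost without APOE_L replicate 2 (adjusted p = 0.0542).

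Hsp90b1, the chaperone gp96 that folds Toll-like receptors, was higher in H than in L (1.76, SE 0.38, adjusted p = 0.00808, limma) and kept this call in all 17 alternatives. It was at 168, 145 and 50.3 TPM in KA_L, 245, 277 and 167 in KA_H, 135, 70.4 and 92.7 in APOE_L and 605, 389.9 and 649 in APOE_H, with 284 to 345 TPM in CTRL_L. All APOE_H libraries were above all others. Cd36, a scavenger receptor gene that works with Tlr2, was called higher in the averaged H against L (2.64, SE 0.81, adjusted p = 0.0478, limma). The call was kept in 4 of 17 alternatives and was lost without the filter. Only 1 L library reached 1 TPM, so Cd36 passed the filter for testing through the H libraries, where it was called higher. Cd36 was at or under 1.73 TPM in the L libraries. In KA_H it stood at 0.03 TPM, 0 and 33.74 TPM, and in APOE_H at 15.01, 24.35 and 15.97 TPM. Neither KA_H against KA_L (1.51, SE 1.15, adjusted p = 0.586, limma) nor APOE_H against APOE_L (3.77, SE 1.15, adjusted p = 0.0614, limma) passed. Unc93b1, which escorts endosomal receptors, ran from 93.4 to 759 TPM and was not called.

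The 4 tested adaptor genes and the 16 kinase and ligase genes had no member called in any of the 9 comparisons. Their H against L medians were 0.03 and 0.61, against 0.32 for all entries. Ticam1, the adaptor of Tlr3, was listed at 0 in the 3 KA_L libraries and reached at most 8.70 TPM elsewhere, and Tirap, which bridges Tlr2 and Tlr4 to Myd88, at most 19.3 TPM.

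Of 12 transcription factors, H against L called Irf7 higher and Rel and Fos lower (median 0.71). Irf7, the interferon regulatory factor that acts below Tlr7 and Tlr9, was 3.93 higher (SE 1.18, adjusted p = 0.0434, limma), with 7.30 to 30.9 TPM in KA_H and 52.0 to 137 in APOE_H against 0 to 6.50 in KA_L and 0 to 31.4 in APOE_L. CTRL_L held it at 0, 56.7 and 87.9 TPM. Fos, a subunit of AP-1, was 1.01 lower in the average (log2 difference -1.01, SE 0.23, adjusted p = 0.0101, limma), and the call was lost without the filter. Rel, the NF-kappaB subunit c-Rel, was 1.94 lower (log2 difference -1.94, SE 0.59, adjusted p = 0.0452, limma). The Irf7 call was kept in 5 and the Rel call in 4 of 17 alternatives. Within KA, Fos was at 1829.7 to 2479.8 TPM in KA_L and 519.6 to 706 in KA_H (-1.86, SE 0.32, adjusted p = 0.00974, limma), and this call was lost without KA_H replicate 3, without the filter and with only the groups compared. In APOE the groups overlapped, with Fos at 1214 to 1729 TPM in APOE_L and 834 to 2016 in APOE_H (-0.16, SE 0.32, adjusted p = 0.82, limma). The interaction for Fos, 1.70, did not pass (SE 0.45, adjusted p = 0.271, limma).

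Of 12 negative regulators, Socs1, an inhibitor of cytokine signalling, was called higher in H than in L (1.56, SE 0.46, adjusted p = 0.0381, limma; 4 of 17 alternatives). It did not exceed 0.04 TPM in KA_L and APOE_L and was at 2.54, 3.64 and 1.19 TPM in KA_H and 3.24, 0 and 3.71 in APOE_H. Socs1 reached 1 TPM in H libraries only, so it passed the filter for testing through the libraries where it was called higher. Without the filter the call was lost. Dusp1, a phosphatase of MAP kinases, was higher in APOE_H (1341 ± 329 TPM) than in KA_H (402 ± 29.9 TPM, n = 3; log2 difference 1.71, SE 0.34, adjusted p = 0.0286, limma; 3 of 11 alternatives).

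Of 14 tested target cytokines and chemokines, Ccl3 and Ccl4, which draw in leukocytes, were called higher in KA_L than in CTRL_L (2.20 and 1.94, adjusted p = 0.0274 and 0.0376, limma). They were also higher in KA_H than in CTRL_L (2.41 and 2.21, adjusted p = 0.0232 and 0.0303, limma). H against L called 0 of the 14, with a median of 0.77. Without the filter all 4 of these chemokine calls were lost at the same differences (adjusted p of 0.16 to 0.219), as they were when only the groups compared were fitted (0.345 to 0.665). Leaving out CTRL_L replicate 3 ended each of them too (differences of 1.68 to 1.97, adjusted p of 0.054 to 0.108), and the replicate number as a block ended that of Ccl4 in KA_H (0.0526). Leaving out CTRL_L replicate 2, KA_L replicates 1, 2 or 3 or KA_H replicates 2 or 3 ended some of them (adjusted p of 0.05 to 0.114).

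**Figure D3:**
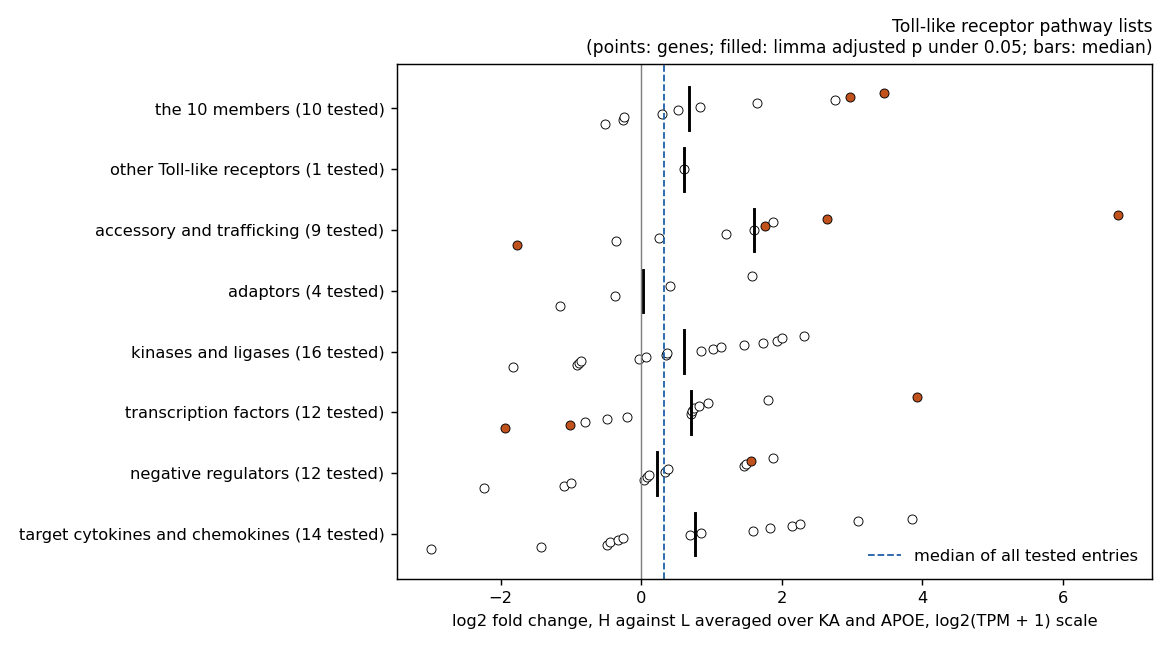
Log2 fold change of H against L averaged over KA and APOE (horizontal axis) for the 10 members and the 7 pathway lists (vertical axis); each point is 1 gene, filled where limma passed it, black bars are list medians and the dashed line is the median of all entries. Lbp lies farthest to the right at 6.79 and Ly96 is a filled point on the left at -1.76, while adaptors and kinases have no filled point.

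The genes whose pattern over the 15 libraries was most like each member were taken by Pearson correlation of log2(TPM + 1) among 10693 named entries with a mean of at least 5 TPM. The libraries share group and composition, so r is a description only. For Tlr2 they were Sdf2l1 (r = 0.94), Icam1 (0.92) and Asna1 (0.91). For Myd88 they were Col9a3 (0.93), Crhr2 (0.91) and Gsn (0.91), and for Tlr1 Dus1l (0.96), Aktip (0.95) and Gapvd1 (0.90). Ly86 was closest to Tyrobp (0.93) and Fcer1g (0.88), both signalling adaptors of myeloid receptors, and to Nmd3 (0.84). Cd14 was closest to Nagk (0.92), Tnfrsf1a (0.86) and Galt (0.84). For Tlr4, Tlr7, Tlr9, Tlr13 and Tlr3 the closest gene was Rpl30 (0.79), Plxna4os1 (0.88), Patl2 (0.87), Rpl36a (0.83) and 6330418K02Rik (0.86).

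Among the members themselves, the highest correlations over the 15 libraries were those of Tlr2 with Myd88 (r = 0.72), Ly86 (0.67) and Cd14 (0.67), followed by Tlr4 with Cd14 (0.63) and Tlr1 with Tlr2 (0.61). Tlr9 ran against Tlr2 (-0.59) and Ly86 (-0.58).

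Markers of other cells that can carry Toll-like receptor transcripts differed between the libraries too, but not all in the same direction. The 6 dendritic cell markers summed to 340 to 567 TPM in APOE_L and 82.5 to 163 TPM in APOE_H. In KA_L they summed to 336 to 775 TPM and in KA_H to 209 to 497 TPM. Between 1 and 4 of the 6 reached 1 TPM in each library. Flt3 alone did so in all 15 (43.0 to 580 TPM), and Clec9a was listed at 0 in 14. The 8 lymphocyte markers overlapped between H and L in KA and in APOE. The part of these 2 lists in the Tlr2 and Myd88 differences was not tested. The 10 neutrophil markers summed to at most 0.39 TPM in each CTRL_L, KA_L and APOE_L library. In KA_H they summed to 990.3, 1293 and 359 TPM and in APOE_H to 19.2, 1193 and 0.02 TPM, with Ly6g listed at 0 in all 15 libraries. APOE_H replicate 3, where they summed to 0.02 TPM, had the highest Tlr2 of all libraries (127 TPM) and Myd88 at 44.6 TPM. KA_H replicate 2, with the highest neutrophil sum, had the lowest Myd88 of the H libraries (2.32 TPM). KA_H replicate 1, with a sum of 990.3 TPM, had the highest Tlr2 and Myd88 of its group (74.3 and 37.9 TPM). The part of neutrophil RNA in the Tlr2 and Myd88 differences was not tested.

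The 12 border macrophage and monocyte markers summed to 24.1 to 187 TPM in CTRL_L, 9.99 to 166 in KA_L, 307 to 682 in KA_H, 153 to 425 in APOE_L and 254 to 664 in APOE_H. Between 1 and 6 of them reached 1 TPM in the CTRL_L libraries, 3 in those of KA_L and 9 to 10 in KA_H. In APOE_L 4 to 6 did, and in APOE_H 7 to 10. Listings at 0 ran from 1 library for Mrc1 to 12 for Chil3. Their part in the Tlr2 and Myd88 differences was not tested. The choroid plexus sums separated all 6 H libraries from the 6 of KA_L and APOE_L, as Tlr2 did, and their part in the Tlr2 and Myd88 differences was not tested either. CTRL_L replicates 2 and 3 had high sums (39121 and 23917 TPM) together with Tlr2 at 0.13 and 0.78 TPM and Myd88 listed at 0. Microglia markers summed to 10335 to 21416 TPM in the H libraries and 7421 to 12769 TPM in KA_L and APOE_L.

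**Figure D4:**
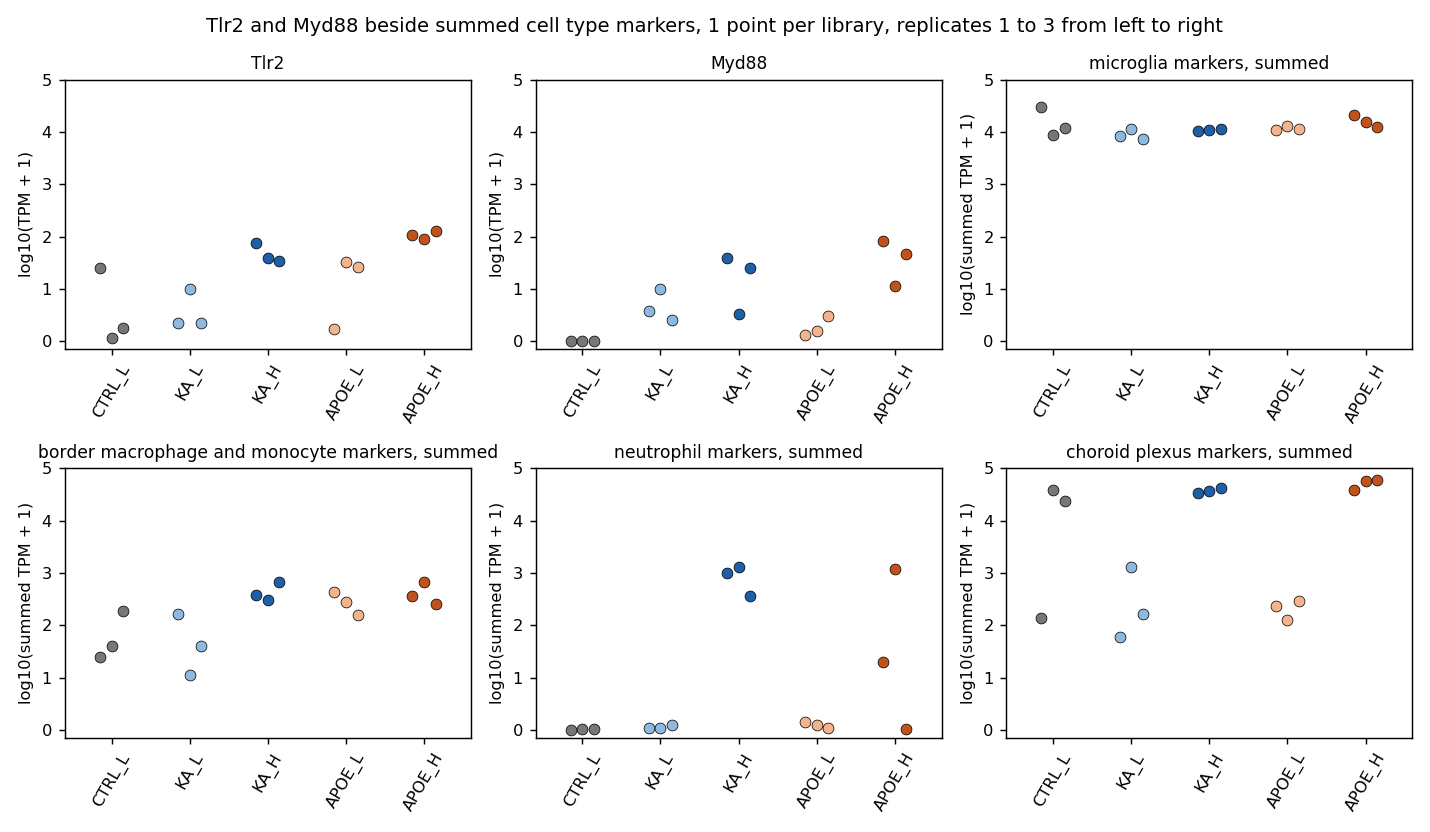
Tlr2 and Myd88 as log10(TPM + 1) and 4 marker lists as log10(summed TPM + 1), both on a vertical log scale, by group on the horizontal axis with 1 point per library in replicate order. Choroid plexus sums are high in all 6 H libraries and in CTRL_L replicates 2 and 3, and neutrophil sums are above 1 TPM in KA_H and in APOE_H replicates 1 and 2.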

How the data were processed

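The deposited values were TPM, made by the authors for 15 libraries in 1 table and already scaled to transcript length and library total. STAR and the build GRCh38 are named per the submitters' processing notes. GRCh38 is a human build, while the identifiers were mouse Ensembl genes (55416) and assembled loci (10548). The quantifier, annotation and strand setting are not given in the sources used here, so overlapping genes cannot be told apart. Symbols came from GENCODE M21 by identifier and matched 52083 entries.

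Values were tested as log2(TPM + 1) by limma 3.58.1 (R 4.3.3), with all 15 libraries in 1 fit, a mean per group and a mean-variance trend (10 residual degrees of freedom). Of all entries, 17505 reached 1 TPM in at least 3 libraries and were tested, and p-values were adjusted by Benjamini-Hochberg over them within each comparison, with a threshold of 0.05. The pseudocount compresses low values, so fold changes of low genes are understated. The procedure was tested on simulated data.

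The members and gene lists were chosen with earlier results of these data known. Named genes were the 10 members, the 3 entries most correlated with each (only the first for 5 of them in the text), and list genes past the threshold. Other list genes named for their role (Cd180, Unc93b1, Ticam1, Tirap, Tlr5, Tlr6, Tlr8, Tlr11 and Tlr12) were added after their values were seen. Markers of 11 cell types were summed per library. Alternatives were a pseudocount of 0.1, no filter, upper-quartile scaling, the replicate number as a block, only the groups compared and each library left out. For the pathway genes these alternatives were added after seeing the data.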

Additional observations from a re-analysis of the deposited data

Results flagged for a closer look

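For Ly86 the difference between APOE and KA had opposite signs in the L and the H libraries, and neither difference passed. KA_L stood at 911 to 1645 TPM and APOE_L at 2287 to 2725 TPM, so each APOE_L library was higher. KA_H stood at 2699 to 3877 TPM and APOE_H at 1641 to 2316 TPM, so each APOE_H library was lower. The interaction was tested directly, was -1.92 on the log2 scale and did not pass (SE 0.51, adjusted p = 0.268, limma), with adjusted p from 0.0709 to 0.657 over 17 alternatives.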

How the results depend on the processing

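Of the 90 pairs of a member and a comparison, 4 were called and 26 changed sign in at least 1 alternative, none of them a called pair. The number of members called in APOE_H against APOE_L (2) was 1 with a pseudocount of 0.1, 0 without the filter, 0 with the replicate number as a block, 1 with only the groups compared, and 0 to 1 when a library was left out. In H against L (2 called) it was 1 with a pseudocount of 0.1, 0 without the filter and 0 to 3 when a library was left out. In KA_H against KA_L (0 called) Ly86 was called with a pseudocount of 0.1 (1) and with upper-quartile scaling (1), and leaving out a library gave 0 to 1. KA_H against CTRL_L (0 called) gave 1 with upper-quartile scaling and 0 to 1 when a library was left out. The cause of these changes was not tested.

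Counts over all tested entries moved as follows. Without the filter they were 50 for KA_L against CTRL_L (100 as reported), 100 for KA_H against KA_L (260), 33 for KA_H against CTRL_L (66), 13 for APOE_L against KA_L (8), 4 for APOE_H against KA_H (93), 538 for APOE_H against APOE_L (1076), 1048 for H against L (1782), 8 for APOE against KA (3) and 3 for the interaction (8). Upper-quartile scaling gave 62, 394, 139, 6 and 24 for KA_L against CTRL_L, KA_H against KA_L, KA_H against CTRL_L, APOE against KA and the interaction. With only the groups compared these 5 gave 0, 3, 3, 6 and 18, APOE_L against KA_L gave 1 and APOE_H against KA_H 0. Leaving out a library gave 66 to 232, 38 to 300, 17 to 52, 8 to 68, 50 to 120, 429 to 766, 1187 to 1838, 2 to 16 and 0 to 22, in the order of the 9 comparisons above. The share of higher calls moved with upper-quartile scaling from 30.0% to 41.9% in KA_L against CTRL_L, from 67.7% to 53.5% in APOE_H against KA_H and from 66.7% to 33.3% in APOE against KA.

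Replicate numbers are shared between groups, but the 30 correlations between same-numbered libraries ran from -0.0263 to 0.0365, so no pairing by number was seen. These correlations cannot tell whether same-numbered libraries share an origin. With the replicate block 19 entries were called in KA_H against CTRL_L, 4 in APOE_L against KA_L, 61 in APOE_H against KA_H and 1 in the interaction. Depth is unknown in TPM and sets no stated limit.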
